A study of Mus musculus with 5 samples.

Results

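The genes described here are 10 mouse genes of apical-basal polarity and polarised vesicle sorting, Crb3, Pard6b, Llgl2, Rab25, Myo5b, Rab17, Ap1m2, Sytl1, Sytl2 and Eps8l1, out of 19938 genes measured. They were chosen by function, with earlier results of the same arrays known. Eps8l1 was added because it was lower in the tumour cultures, so its difference between the groups is a description and not a finding. Each gene has 1 probe set on the array, and its value is a log2 signal, so a difference of 1 is a change by a factor of 2. The PDAC group held 3 primary cultures of pancreatic ductal adenocarcinoma cells of genotype Pdx-1CreAPCL/+p53L/L, in which Cre recombinase made in cells of the Pdx-1 lineage acts on 1 floxed allele of Apc and on both floxed alleles of p53. The normal ductal group held 2 cultures whose genotype label is P53L/L and whose cell type label is ductal, so the p53 alleles are labelled alike in all 5 cultures and the Apc allele is the labelled difference besides the tumour origin. The labels of normal ductal replicate 2 do not all match: where the title of replicate 1 gives Pdx-1Cre and ductal cells, its title names Pdx-1 without Cre and speaks of pancreatic cells without the word ductal. Its acinar and islet markers, with mean log2 signals of 8.23 and 8.72, stood above those of replicate 1, at 5.52 and 6.59, so values are also given without it. The title of PDAC replicate 3 alone adds the words mutant cell. Cells were grown with 10% serum for fewer than 6 passages. The labels call the cultures biological replicates without naming animals, so the spread between them may be technical in part.

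An epithelial cell keeps its apical face, toward the lumen, apart from its basolateral face. The Crumbs, Par and Scribble complexes mark these domains. Membrane proteins are then carried to the right face by Rab GTPases, myosin motors and clathrin adaptors, with tethers that dock vesicles before fusion. In a pancreatic duct the apical face carries the channels and mucins that shape the juice. Several of these genes have an epithelial form and a widely expressed relative, such as Ap1m2 beside Ap1m1.

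The rule that chose the genes did not use their promoters. In RefSeq's GRCm38.p6 table, 7 of the 10 genes have a promoter window of 300 bases, running from 250 bases before the annotated start site to 50 after it. Myo5b, Llgl2 and Sytl2 have no window there. Windows were searched on both strands for CAGGTG, the E-box core bound by ZEB and SNAIL factors, which are known to repress CRB3 in human epithelial cells. They were also searched for AACNGGTT, a core of Grainyhead-like factors, for CTTTGAT, a core of TCF/LEF factors, and for GGGCGG, a GC box. No match of one motif overlapped a match of another in these windows. The 4 genes below differed by more than 1 between the groups and have a window, and they are shown because CAGGTG recurs in them. Each is given 5′ to 3′ on the gene's strand. Capitals mark CAGGTG, which reads CACCTG where it lies on the other strand, and in Rab25 also the single match to AACNGGTT, on the other strand.
Rab25: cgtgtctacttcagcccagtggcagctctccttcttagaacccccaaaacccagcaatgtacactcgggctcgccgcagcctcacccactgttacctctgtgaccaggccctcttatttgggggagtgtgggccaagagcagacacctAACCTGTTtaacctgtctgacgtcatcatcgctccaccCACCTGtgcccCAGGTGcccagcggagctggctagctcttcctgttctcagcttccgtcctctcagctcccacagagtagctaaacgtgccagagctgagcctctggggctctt
Ap1m2: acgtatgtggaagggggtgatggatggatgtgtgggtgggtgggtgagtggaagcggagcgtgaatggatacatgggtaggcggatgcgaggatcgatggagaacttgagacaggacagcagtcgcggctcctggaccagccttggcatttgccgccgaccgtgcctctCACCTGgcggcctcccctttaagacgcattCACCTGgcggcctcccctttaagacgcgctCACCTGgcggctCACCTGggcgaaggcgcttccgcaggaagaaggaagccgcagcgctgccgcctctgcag
Crb3: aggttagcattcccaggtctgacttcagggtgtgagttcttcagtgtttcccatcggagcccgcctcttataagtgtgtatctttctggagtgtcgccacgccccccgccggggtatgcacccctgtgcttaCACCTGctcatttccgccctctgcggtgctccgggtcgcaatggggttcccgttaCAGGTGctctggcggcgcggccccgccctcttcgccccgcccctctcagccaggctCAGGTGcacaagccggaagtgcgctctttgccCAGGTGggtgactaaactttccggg
Pard6b: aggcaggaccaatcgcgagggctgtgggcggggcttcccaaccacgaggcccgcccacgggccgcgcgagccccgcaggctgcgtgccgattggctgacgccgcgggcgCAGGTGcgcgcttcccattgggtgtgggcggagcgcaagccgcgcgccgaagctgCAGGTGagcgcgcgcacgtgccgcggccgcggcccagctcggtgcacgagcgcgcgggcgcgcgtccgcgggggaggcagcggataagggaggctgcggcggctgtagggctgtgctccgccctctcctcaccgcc

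The Rab25 window is chr3:88548230-88548529 on the minus strand, that of Ap1m2 is chr9:21312284-21312583 on the minus strand, that of Crb3 is chr17:57061951-57062250 on the plus strand, and that of Pard6b is chr2:168080754-168081053 on the plus strand. Ap1m2 holds 4 matches to CAGGTG, whose first bases lie at -81, -51, -21 and -9 from the start site, so the first 3 are spaced by 30 bases. Crb3 holds 4 as well, at -118, -63, -7 and 25, and a second annotated start 30 bases downstream gives the same 4. Rab25 holds 2, at -64 and -53, and Pard6b holds 2, at -141 and -86. Among all 27025 genes with a window, 22.6% hold at least 1 match, 3.32% hold at least 2 in 1 window and 17 genes, 0.0629%, hold 4 or more.

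Of the 7 genes with a window, 6 held CAGGTG at least once and 5 held it 2 or more times, Rab17 having a single match, Eps8l1 2 at its downstream starts and Sytl1 none. Of 16 relatives of these genes with a window, 5 held it (31.2%), and 1 of them held 2 or more matches. AACNGGTT was in 1 of the 7, Rab25, against 2.35% of all genes. GGGCGG was in 3 of the 7 against 38.2% of all genes, and CTTTGAT was in 0 of 7 against 4.29%. These are matches of letters, and no binding was measured.

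The comparison of PDAC with normal ductal cultures asks how tumour cells with a floxed Apc allele differ from normal pancreatic cells without it. Of the 10 genes, 8 had all their PDAC values below both normal ductal values, as did 12.8% of all genes. Sytl2 alone was higher in every PDAC culture, as were 13.6% of all genes, and Rab17 overlapped. Leaving out normal ductal replicate 2 cannot make separate groups overlap, so only Rab17 could change. Without that array Rab17 differed by -0.53. The largest differences were those of Rab25, 12.5-fold lower, and Ap1m2, 9.82-fold lower. Crb3, Pard6b, Llgl2 and Myo5b were between 4.06-fold and 5.31-fold lower. The median difference of the 10 genes was -2.06, and that of all genes was 0.01. In a bulk culture, fewer epithelial cells and less RNA per cell cannot be told apart.

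**Figure D1:**
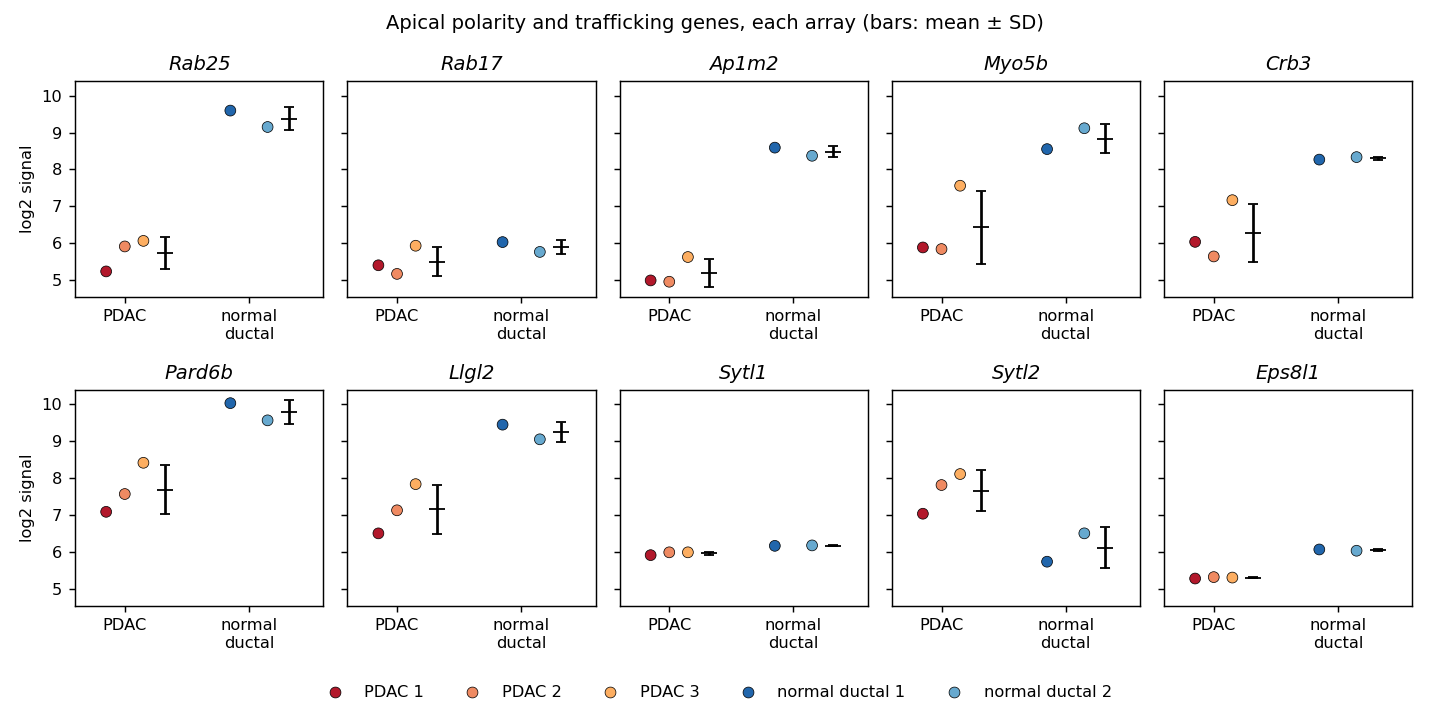
Log2 signal (vertical axis) of the 10 genes on each of the 5 arrays, PDAC cultures at left and normal ductal cultures at right in each panel; points are arrays and bars are means with SD (n = 3 and n = 2). Rab25 and Ap1m2 lie between 4.95 and 6.06 on the PDAC arrays and between 8.37 and 9.60 on the normal ductal arrays, while Sytl2 is the 1 gene with every PDAC array above both normal ductal arrays.

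The polarity complexes were represented by Crb3, Pard6b and Llgl2. Crb3, a small Crumbs protein that marks the apical membrane, stood at 6.03, 5.64 and 7.16 in PDAC replicates 1, 2 and 3, against 8.27 and 8.33 in normal ductal replicates 1 and 2. The normal ductal cultures were nearly equal, and PDAC replicate 3 lay closest to them, with a gap of 1.10 between the groups. The group means were 6.28 ± 0.79 (SD, n = 3) in PDAC and 8.30 ± 0.05 (SD, n = 2) in normal ductal cultures.

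Pard6b, the scaffold that couples Cdc42 to atypical protein kinase C in the Par complex, had 7.09, 7.57 and 8.42 in the PDAC replicates, against 10.04 and 9.57 in normal ductal replicates 1 and 2. The groups did not overlap, and PDAC replicate 3 was again the highest tumour culture. Its difference was -2.11 (SE 0.47). Llgl2, a basolateral partner of the Scribble complex that holds atypical protein kinase C in check, stood at 6.50, 7.13 and 7.84 in PDAC, against 9.45 and 9.05 in normal ductal cultures, a difference of -2.10 (SE 0.46). Its 5 cultures stood in the same order as those of Pard6b. In GRCm38 Crb3 lies on chromosome 17 from 57062201 to 57065918, Pard6b on chromosome 2 from 168081004 to 168101203 and Llgl2 on chromosome 11 from 115824029 to 115855780.

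The apical recycling route was represented by Rab25, Myo5b and Rab17. Rab25, the epithelial relative of Rab11 on recycling endosomes, stood at 5.23, 5.91 and 6.06 in PDAC, against 9.60 and 9.15 in normal ductal cultures. All 3 tumour cultures were low, within 0.83 of each other, and the gap to the lower normal ductal array was 3.09. The means were 5.73 ± 0.44 (SD, n = 3) in PDAC and 9.37 ± 0.32 (SD, n = 2) in normal ductal cultures. Rab25 lies on chromosome 3 from 88542029 to 88548279.

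Myo5b, the myosin V motor that moves Rab11 and Rab25 vesicles and whose loss in humans disturbs the gut brush border, had 5.88, 5.84 and 7.56 in PDAC, against 8.55 and 9.12 in normal ductal cultures. PDAC replicates 1 and 2 were nearly equal and replicate 3 stood 1.72 above the lowest, the widest range of the 10 genes among the tumour cultures. The difference was -2.41 (SE 0.67). Rab17, an epithelial Rab of the transcytosis route, stood at 5.40, 5.16 and 5.93 in PDAC, against 6.03 and 5.76 in normal ductal cultures. PDAC replicate 3 lay between the normal ductal arrays, and the difference of -0.40 (SE 0.27) was close to the SD of the PDAC cultures, 0.39. It was -0.23 without PDAC replicate 2, -0.61 without PDAC replicate 3 and -0.26 without normal ductal replicate 1.

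Ap1m2, the epithelial medium chain of the AP-1 clathrin adaptor that sorts cargo to the basolateral face, stood at 4.99, 4.95 and 5.62 in PDAC, against 8.59 and 8.37 in normal ductal cultures. The groups were separated by 2.75, beside a range of 0.67 among the tumour cultures. The means were 5.19 ± 0.38 (SD, n = 3) in PDAC and 8.48 ± 0.16 (SD, n = 2) in normal ductal cultures. Ap1m2 lies on chromosome 9 from 21294615 to 21312349.

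The synaptotagmin-like tethers measured were Sytl2 and Sytl1. Sytl2, a Rab27 effector that docks vesicles at the plasma membrane, stood at 7.03, 7.81 and 8.11 in PDAC, against 5.73 and 6.50 in normal ductal cultures, a difference of 1.54 (SE 0.44). It was higher in 3 of 3 tumour cultures, with a gap of 0.53, smaller than the SD of 0.54 between the normal ductal arrays. Sytl1, another Rab27 effector, had 5.91, 5.99 and 5.99 in PDAC, against 6.16 and 6.17 in normal ductal cultures. The difference was -0.21, or -0.12 with arrays at a common median or quantile normalized, the groups were separated by 0.18, and PDAC replicates 2 and 3 hold the same deposited value.

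Eps8l1, a relative of the actin-capping protein Eps8, stood at 5.27, 5.31 and 5.30 in PDAC, against 6.06 and 6.03 in normal ductal cultures. The arrays of a group lay within 0.04 of each other and the groups 0.72 apart, so a small difference of -0.75 came with the smallest SE of the 10 genes, 0.03. Rab17, Sytl1 and Eps8l1 lay below the median of all genes on every array. No detection call was used here, so how much of such low values is background was not measured.

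The fit across all genes (limma, Benjamini-Hochberg adjustment) called 11 genes, 0.0552% of those tested, 1 higher (0.00502%) and 10 lower (0.0502%) in PDAC. Without any 1 PDAC culture that number was 0, with 934 to 1416 genes higher and 994 to 1335 lower before adjustment. Without normal ductal replicate 1 it was 1287, 980 higher and 307 lower, and without normal ductal replicate 2 it was 990, 125 higher and 865 lower, so the prevailing direction depended on which normal array was kept. In both of these fits the lone normal array is assumed to vary like the PDAC cultures. Eps8l1 is 1 of the 10 and was chosen for that, so nothing is read from its call. The other 9 genes had adjusted p-values between 0.119 and 0.550 by limma. At an unadjusted p under 0.05, 8 of the 10 genes were lower and 1 higher, against 6.86% of all genes lower and 6.5% higher, and this too is a description of genes picked with the result in view. With arrays set to a common median, 2042 genes passed that unadjusted threshold as higher and 1081 as lower, against 1296 and 1367 as deposited. Without normal ductal replicate 1 or 2 fewer of the 10 genes passed that threshold, with median differences of -1.89 and -2.06.

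The tumour cultures were not alike in these genes. PDAC replicate 3 was the highest tumour culture for 8 of the 10 genes and the lowest for 0. For the 6 genes with a difference below -1 (4.35% of all genes passed that size), the median distance from the normal ductal mean was -2.85 in PDAC replicate 1, -2.83 in replicate 2 and -1.40 in replicate 3. Rab25 and Ap1m2 were 9.95-fold and 7.26-fold below the normal ductal mean in replicate 3, whereas Crb3 and Myo5b were 2.20-fold and 2.42-fold below it. The normal ductal arrays differed from each other by -0.57 to 0.47 over the same 6 genes. Each PDAC replicate is 1 culture, so differences among them have no test.

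**Figure D2:**
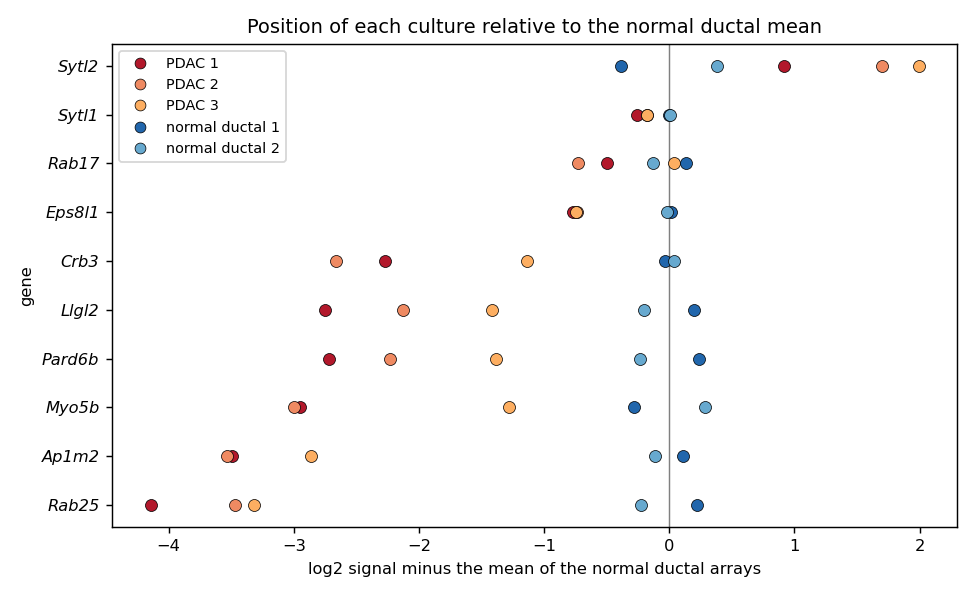
Distance of each culture from the normal ductal mean (log2, horizontal axis) for each of the 10 genes (rows, ordered by the group difference); points are arrays. PDAC replicate 3 lies nearest to the normal ductal arrays for Crb3, Llgl2, Pard6b and Myo5b, at -1.14 to -1.42, and all tumour cultures lie at -2.86 or below for Ap1m2 and Rab25.

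The duct label was checked against epithelial markers. Of 8 measured duct and epithelial markers, with a mean log2 signal of 6.74, 8.04 and 9.87 in PDAC replicates 1, 2 and 3 and of 11.24 and 10.76 in normal ductal replicates 1 and 2, 6 were lower in every PDAC culture. The order of that mean among the tumour cultures was that of the mean of the 10 polarity and trafficking genes. The latter stood at 5.93, 6.13 and 6.80 in PDAC, against 7.85 and 7.81 in normal ductal cultures. Singly, 6 of the 10 genes were lowest in PDAC replicate 1 and 4 in PDAC replicate 2. Keratin 8 (Krt8) stood at 7.74, 8.93 and 10.45 in PDAC, against 12.53 and 12.42 in normal ductal cultures, and Epcam at 5.25, 4.84 and 7.60 in PDAC, against 10.19 and 9.78 in normal ductal cultures. Krt19 and Sox9 overlapped between the groups. The Krt19 signal, that of another duct keratin, was 6.47, 9.51 and 11.74 on the PDAC arrays, against 11.46 and 11.37 on the normal ductal arrays, so PDAC replicate 3 was above both normal arrays. Sox9, a duct transcription factor, stood at 9.41, 10.39 and 10.39 in PDAC, against 10.93 and 10.20 in normal ductal cultures. The part of epithelial content in these differences was not tested.

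Markers of other cell types were summed in the same way. Fibroblast and stellate markers had means of 9.24, 9.11 and 8.88 in PDAC, against 6.93 in normal ductal replicate 1 and 9.88 in replicate 2, where all 10 stood more than 1 above replicate 1. Acinar markers had means of at most 5.77 in PDAC, against 5.52 in normal ductal replicate 1 and 8.23 in replicate 2, and islet markers of at most 5.52 in PDAC, against 6.59 and 8.72 in normal ductal cultures. Endothelial markers ranged from 5.34 to 5.37 in PDAC and were at 5.92 and 7.23 in normal ductal cultures, and leukocyte markers from 5.16 to 5.28 in PDAC, against 5.61 and 6.11 in normal ductal cultures. Mesothelial markers stood at 5.60, 6.20 and 9.17 in PDAC, against 7.05 and 7.80 in normal ductal cultures. Upk3b and Upk1b were at 10.41 and 10.77 in PDAC replicate 3, and at most 5.72 and 7.58 in the other cultures. Msln, Wt1 and Lrrn4, at 11.18, 7.58 and 5.93 in PDAC replicate 3, were each below a normal ductal array. No marker had a value of 0, but neither did any probe set, the lowest value being 0.727, so this does not show detection. Without normal ductal replicate 2 the median difference of the 10 genes was -2.06, as with it, and without PDAC replicate 3 it was -2.45. Apc, the floxed gene, had a mean of 8.88 ± 0.26 (SD, n = 3) in PDAC and 9.13 ± 0.15 (SD, n = 2) in normal ductal cultures. Where its probes lie relative to the floxed exon is not given in the sources used here, so it does not check the labels. The signal of the p53 gene was not analysed here.

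**Figure D3:**
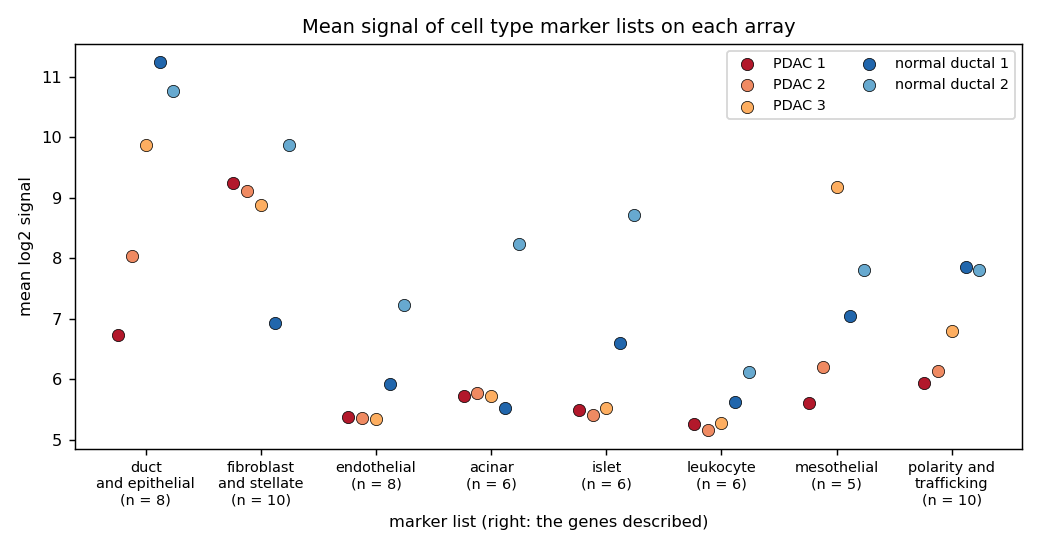
Mean log2 signal (vertical axis) of 7 cell type marker lists and, at right, of the 10 polarity and trafficking genes on each array; points are arrays. Duct and epithelial markers stand in PDAC replicates 1, 2 and 3 at 6.74, 8.04 and 9.87, the same order as the mean of the 10 genes. Acinar and islet markers stand above 8 on 1 array, normal ductal replicate 2.

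Relatives of the 10 genes, chosen by family and not by value, showed mostly small differences. Limma called 0 of the 19 relatives after adjustment, and at an unadjusted p under 0.05 it gave 2 higher and 1 lower, 10.5% and 5.26%, near the 6.5% and 6.86% of all genes. With a common array median the counts were 4 higher and 1 lower, beside 2042 and 1081 of all 19938 genes. With quantile normalization they were 2 and 2, beside 1356 and 1404. Without PDAC replicate 1 they were 1 and 1, beside 955 and 994, and without PDAC replicate 2 they were 2 and 0, beside 934 and 1061. The median difference of the relatives was 0.00, that of Crb1, whose deposited value is the same on all 5 arrays. It was -0.06 over the 17 relatives left without the lowest 25% of genes. Without normal ductal replicate 1 or 2 it was 0.02 or -0.02. For 5 lower and 4 higher relatives the groups did not overlap, 26.3% and 21.1%, beside 12.8% and 13.6% of all genes. The widely expressed Rab11a and Rab11b, relatives of Rab25, had differences of -0.15 (SE 0.09) and 0.38 (SE 0.17). Ap1m1, the general form of Ap1m2, stood at 9.96, 10.15 and 10.07 in PDAC, against 9.32 and 9.86 in normal ductal cultures. All tumour cultures were thus above the normal ductal ones for Ap1m1 and below them for Ap1m2, with a difference of 0.47 (SE 0.20, adjusted p = 0.441 by limma) for Ap1m1.

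Pard6a, a relative of Pard6b, had a difference of 0.54 (SE 0.14, adjusted p = 0.289 by limma), and Pard6g one of 0.08 (SE 0.43). Llgl1, the general form of Llgl2, had 7.79, 8.16 and 7.79 in PDAC, against 8.13 and 7.84 in normal ductal cultures, and the groups overlapped. Crb1 had the same deposited value, 4.48, on all 5 arrays, and Crb2 had a difference of 0.31 (SE 0.26). The relatives of Rab17, Rab5a, Rab21 and Rab22a, had differences between -0.26 and 0.07.

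Larger differences were measured for relatives of Myo5b, Eps8l1 and Sytl2. Myo5c, an epithelial myosin V, stood at 5.95, 6.50 and 7.95 in PDAC, against 9.07 and 9.14 in normal ductal cultures, a difference of -2.30 (SE 0.68, adjusted p = 0.315 by limma). It was low where Myo5b was low and highest among the tumour cultures in replicate 3, whereas Myo5a, the form of nerve and pigment cells, had -0.06 (SE 0.24). In the Eps8 family, Eps8 was higher in every PDAC culture, with 8.74, 9.95 and 9.15 in PDAC, against 7.65 and 8.17 in normal ductal cultures, and a difference of 1.37 (SE 0.44, adjusted p = 0.341 by limma). Eps8l2 was lower in every PDAC culture (-1.39, SE 0.64), and Eps8l3 differed by -0.06 (SE 0.04). Of the synaptotagmin-like relatives, Sytl5 had -1.33 (SE 0.55), Sytl4 -0.34 (SE 0.20) and Sytl3 0.02 (SE 0.03). The sign of Rab5a, Rab22a, Myo5a, Crb1, Llgl1 and Eps8l3, all within 0.08 of 0 as deposited, depends on the scaling of the arrays.

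**Figure D4:**
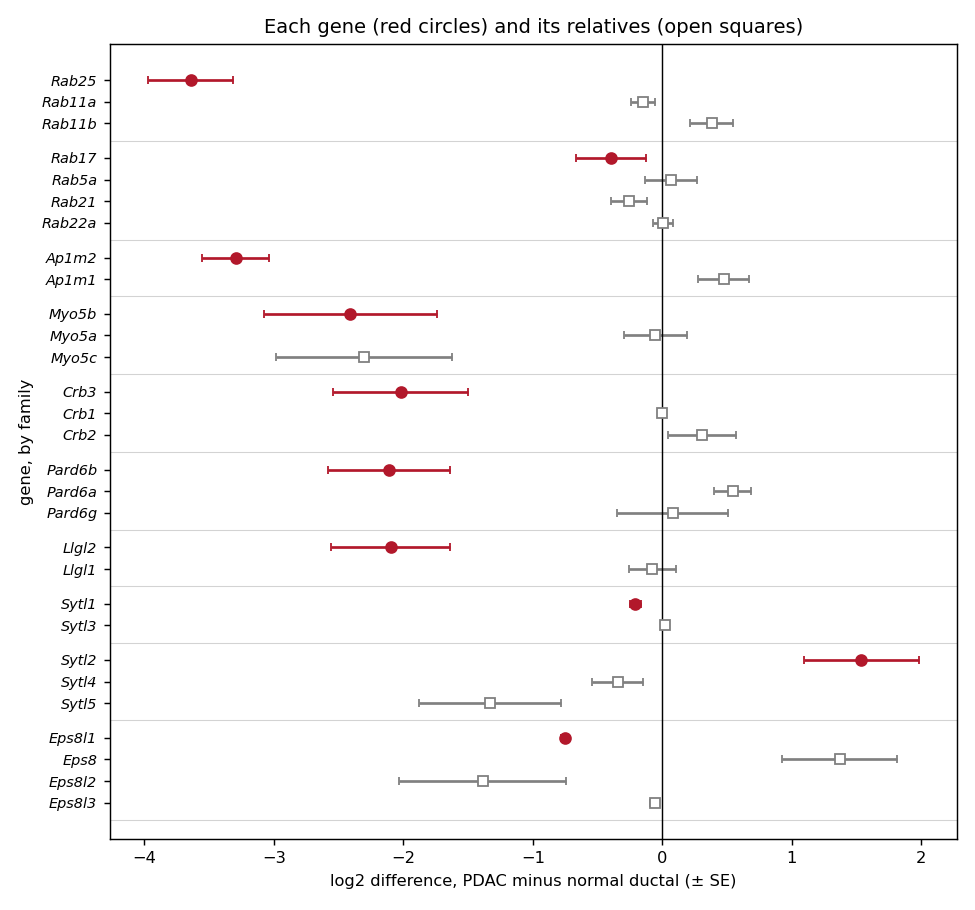
Log2 difference, PDAC minus normal ductal, with its SE (horizontal axis) for each of the 10 genes (red circles) and its relatives (open squares), grouped by family. Rab25, Ap1m2, Pard6b, Crb3 and Llgl2 lie at -2.02 or below while their relatives lie between -0.15 and 0.54, and Myo5c lies beside Myo5b.

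The other genes of the pathway were taken from 4 lists with the 10 genes left out, 150 measured genes in all. After adjustment limma called 0 of them in either direction, and at an unadjusted p under 0.05 it gave 7 higher and 27 lower, 4.67% and 18%, beside 6.5% and 6.86% of all genes. The groups did not overlap for 49 lower and 15 higher genes of the 150, 32.7% and 10%, beside 12.8% and 13.6% of all genes. With arrays at a common median, 1871 of all genes were lower and 7634 higher without overlap, against 2549 and 2709 as deposited, and the split became 11 lower and 8 higher for polarity complexes, 13 and 5 for recycling and exocytosis, and 8 and 6 for the apical cortex, against 11 and 3, 15 and 3, and 10 and 3 as deposited. The median difference over the 150 was -0.10. Without PDAC replicate 2 the 27 lower at the unadjusted threshold became 17, beside 1061 of all 19938 genes. The 7 higher became 4 without PDAC replicate 1, beside 955 of all genes. Without normal ductal replicate 1 or 2 the share of lower genes was near or below that of all genes. The median difference there was -0.09 or -0.11.

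Of 33 further polarity complex genes, with a median difference of -0.08, limma called 0 after adjustment. At an unadjusted p under 0.05 it gave 10 lower and 2 higher, 30.3% and 6.06%, beside 6.86% and 6.5% of all genes. The 10 lower became 6 without PDAC replicate 2, beside 1061 of all 19938 genes, and the 2 higher became between 0 and 2. Without normal ductal replicate 1 or 2 fewer were lower, with median differences of -0.18 and -0.125. Patj, the scaffold that binds Crumbs through Pals1, stood at 5.72, 6.47 and 6.97 in PDAC, against 8.69 and 8.50 in normal ductal cultures, a difference of -2.21 (SE 0.42, adjusted p = 0.210 by limma). Its tumour cultures stood in the order of those of Llgl2 and Pard6b. Dlg1, a scaffold of the Scribble complex, differed by -0.83 (SE 0.14), and Mark4, a Par-1 kinase, by -0.70 (SE 0.15). Dlg4, a relative of Dlg1 best known from synapses, differed by 0.67 (SE 0.21).

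Of 46 apical recycling and exocytosis genes, 0 were called after adjustment by limma. At an unadjusted p under 0.05, 9 were lower and 0 higher, 19.6% and 0%, beside 6.86% and 6.5% of all genes. Without normal ductal replicate 1 or 2 fewer were lower, a share near or below that of all genes. The median difference of the list there was -0.13 or -0.12. Rab11fip5, an effector that links Rab11 to its motors, stood at 7.70, 8.04 and 8.27 in PDAC, against 9.52 and 9.06 in normal ductal cultures. Exoc6, a subunit of the exocyst tethering complex, stood at 6.73, 7.05 and 7.59 in PDAC, against 8.45 and 8.59 in normal ductal cultures. Anxa13, an annexin of apical transport, differed by -1.56 (SE 0.39, adjusted p = 0.273 by limma). For these genes no tumour culture overlapped the normal ductal ones.

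Of 40 adaptor and basolateral sorting genes, 0 were called after adjustment by limma. At an unadjusted p under 0.05, 5 were lower and 3 higher, 12.5% and 7.5%, beside 6.86% and 6.5% of all genes. The 5 became 3 without PDAC replicate 1 or 2, beside 994 or 1061 of all 19938 genes. Without normal ductal replicate 1 or 2 fewer were lower as well, with median differences of -0.04 and 0.03. The small chains of AP-1 differed in direction. Ap1s3 stood at 6.36, 6.33 and 6.94 in PDAC, against 8.44 and 8.57 in normal ductal cultures, a difference of -1.96 (SE 0.23, adjusted p = 0.156 by limma), while Ap1s1 had 10.45, 10.59 and 10.55 in PDAC, against 9.93 and 10.13 in normal ductal cultures, a difference of 0.50 (SE 0.10, adjusted p = 0.211 by limma). The AP-4 chain Ap4m1 (0.61, SE 0.15) and the AP-2 chain Ap2m1 (0.48, SE 0.16) were higher, and Ap2b1 (-0.52, SE 0.15) and Arfgef1, an activator of Arf GTPases, (-0.41, SE 0.12) were lower. As deposited 13 genes of this list were lower and 6 higher without overlap, beside 2549 and 2709 of all 19938 genes. With arrays at a common median 6 were lower and 13 higher, beside 1871 and 7634 of all genes.

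Of 31 genes of the apical cortex and microvillus, 0 were called after adjustment by limma. At an unadjusted p under 0.05, 3 were lower and 2 higher, 9.68% and 6.45%, near the 6.86% and 6.5% of all genes. Without PDAC replicate 1 there were 3 lower and 1 higher, beside 994 and 955 of all 19938 genes. Without PDAC replicate 2 there were 1 and 1, beside 1061 and 934, and without PDAC replicate 3 5 and 0, beside 1335 and 1416. The median difference of the list was -0.14, and -0.10 or -0.16 without normal ductal replicate 1 or 2. Cobl, an actin nucleator, stood at 6.04, 5.96 and 6.19 in PDAC, against 6.99 and 6.97 in normal ductal cultures, a difference of -0.91 (SE 0.09, adjusted p = 0.140 by limma). The microvillus bundler villin (Vil1) differed by -1.92 (SE 0.50), with replicate 1 minus replicate 2 of the normal ductal cultures at -1.52, and the motor Myo1d by -0.59 (SE 0.20). Fascin (Fscn1), a bundler of filopodia, differed by 1.33 (SE 0.39, adjusted p = 0.314 by limma).

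**Figure D5:**
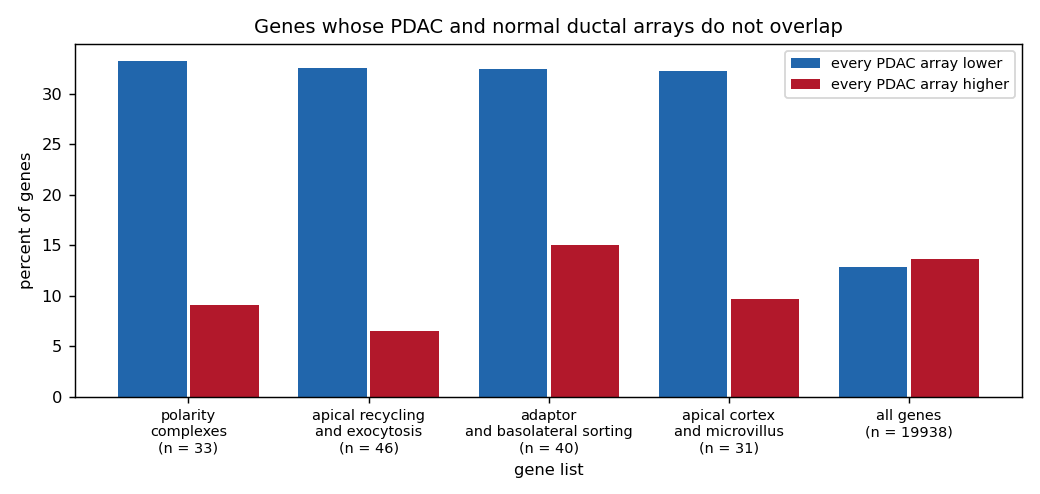
Percent of genes (vertical axis) whose arrays do not overlap between the groups, every PDAC array lower (blue) or higher (red), in the 4 pathway lists and over all 19938 genes, on the deposited values. Between 32.3% and 33.3% of each list is lower, beside 12.8% of all genes. With arrays at a common median the adaptor list had 6 lower and 13 higher, beside 1871 lower and 7634 higher of all genes.

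The genes whose pattern over the 5 arrays was nearest to the mean of the 10 genes were sought among genes above the median signal, by the root mean square difference of centred log2 values. The nearest was Inava, at a distance of 0.065 (log2), with 7.37, 7.52 and 8.17 in PDAC, against 9.21 and 9.05 in normal ductal cultures. Exoc6 came next at 0.10, followed by Rbpms, Krtcap3, Thsd4, Fam83h, Usp43 and Lrba, at up to 0.15. The 10 genes themselves lay at 0.34 (Llgl2) to 1.54 (Sytl2) from their own mean. These distances rest on 5 arrays.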

How the data were processed

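The deposited log2 values cover 35556 probe sets and 5 arrays, 3 of PDAC and 2 of normal ductal cultures. Per the labels' protocols, total RNA was biotin-labelled for whole-transcript arrays of Affymetrix. The submitters' processing notes name Transcriptome Analysis Console 1.0.0.234 and the mm10 build, with background correction, normalization and log base not given in the sources used here. That they are log2 values was judged from their range, 0.727 to 13.9, and the authors deposited arrays with medians of 5.90 to 6.02.

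Probe sets with exactly 1 gene symbol (21789) were kept, 1621 with several symbols and 12146 unnamed here were left out, and the probe set with the highest mean stood for a gene. Groups were compared with limma 3.58.1 under R 4.3.3 (eBayes with an intensity trend, two-sided, 3 residual and 0.91 prior degrees of freedom), adjusted by Benjamini-Hochberg over all 19938 genes at a threshold of 0.05, a fit checked on simulated data. Differences are PDAC minus normal ductal. The 10 genes, the lists and the tests were chosen with earlier results of these data known. Named besides the 10 are their relatives, in each of the 4 lists up to 3 genes a direction with the smallest p under 0.05 and no overlap of the groups, the 8 genes nearest in pattern, and markers. Listed genes without a probe set of a single symbol, such as Vamp2, Spp1, Pnlip and Ins1, were not analysed here. The number of arrays limits the precision. Alternatives were 2 normalizations, a filter on the lowest 25% of genes, no trend, the mean of all probe sets, the replicate number as a block and leaving out each culture. Promoters came from RefSeq. Tables were made in Python 3.11.15 with pandas 2.3.3, and figures with matplotlib 3.10.9.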

Additional observations from a re-analysis of the deposited data

How the results depend on the processing

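The median difference of the 10 genes kept its direction in all 11 alternatives, from -2.45 to -1.79. With 1 probe set a gene, the filter, the fit without a trend and the mean of probe sets cannot move a gene's difference, and the block repeats the fit without PDAC replicate 3. In the 7 other alternatives, 66 of 70 single differences moved by less than the SD within groups and 4 by more, and 0 changed sign. The 4 are Eps8l1 (-0.67 with quantile normalization and with a common array median) and Sytl1 (-0.12 with both). Part of these counts was fixed beforehand. Leaving out a PDAC culture cannot move a difference by the SD within groups. Leaving out any culture cannot turn the sign of a gene whose groups do not overlap. Of the 10 genes, quantile normalization called Rab25 and Ap1m2, a common array median Ap1m2, and the fits without normal ductal replicate 1 or 2, where the spread comes from the PDAC cultures alone, Eps8l1. The 7 remaining alternatives called 0, with 6 to 9 lower and 0 to 1 higher before adjustment by limma. Over all genes these 7 fits gave 994 to 1417 lower and 934 to 1416 higher before adjustment. They tested 19938 genes or, with the filter, 14953. The calls among the 10 genes describe genes picked with the result in view. Over all genes limma called 11 as deposited, 41 with quantile normalization, 33 with a common array median, 0 with the replicate block (before adjustment, 1104 higher and 1110 lower) and 0 to 1287 with 1 culture left out. The 0 are the fits without a PDAC culture, which gave 934 to 1416 higher and 994 to 1335 lower before adjustment. For the adaptor list that range was 0 to 1 and for the apical cortex list 0 to 2, and the other lists and the relatives kept 0 calls. The median difference of all genes was 0.09 with a common array median and 0.05 with quantile normalization.

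Over genes, the deviations of same-numbered cultures from their group means had a correlation of -0.18 for replicate 1 and -0.04 for replicate 2. With 2 normal ductal arrays, the deviations of 1 mirror those of the other. Both values thus rest on the same normal ductal deviations and cannot show whether the numbers mark pairs. The numbers were not taken as pairs. With the replicate block the median difference of the 10 genes was -2.45, which by construction leaves PDAC replicate 3, the 1 number without a partner, out of the estimate.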
